A study of Homo sapiens with 19 samples.

Results

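The genes described here are 7 genes of cellular iron handling, taken by gene name: FTH1, FTL, TFRC, SLC11A2, SLC40A1, ACO1 and IREB2. All 7 were found once each among the 19942 protein-coding genes of the TPM and eCLIP tables, and 81 of the 256980 transcripts of the rRNA-depleted table belonged to them. The study asked which RNAs are bound by G3BP1 and G3BP2, the RNA-binding proteins that nucleate stress granules (SGs), and which RNAs lie in SGs. It used SH-SY5Y cells, a human neuroblastoma line, before and after sodium arsenite (AS), an oxidative stressor that stops translation and makes SGs form.

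The poly-A libraries came from cells transfected with a control siRNA (siCtrl) or with an siRNA against G3BP1 (siG3BP1) or G3BP2 (siG3BP2). Total and SG came from AS-treated cells. Total was a portion of the lysate cleared at low speed, and SG was the RNA that an antibody to G3BP1 precipitated from the pellet of the same lysate, called the SG core. A further pair of libraries, depleted of rRNA, came from untreated and AS-treated cells. Each of these 7 conditions had 1 library, so their differences have no replicate check and carry no p-value. In eCLIP, where UV light joins RNA to the proteins it touches, each protein had 2 libraries from untreated and 2 from AS-treated cells, and nothing in the labels says whether they came from separate cultures. The labels give no treatment for the untreated rRNA-depleted library and AS at 500 μM for 1 h for its partner. For the siRNA, Total, SG and eCLIP libraries they give 50 mM for 1 h, also for those from untreated and siRNA-treated cells. The methods name a single dose, 500 μM for 1 h, and describe knockdown apart from AS.

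Cells take up iron bound to transferrin through the transferrin receptor (TFRC) and move it out of endosomes with DMT1 (SLC11A2). Ferritin, a shell of heavy (FTH1) and light (FTL) chains, stores it, and ferroportin (SLC40A1) exports it. Iron regulatory proteins 1 and 2 (ACO1 and IREB2) bind a hairpin in these mRNAs, the iron-responsive element (IRE), when iron is scarce. A hairpin in the 5′UTR then blocks translation, and hairpins in the 3′UTR of TFRC protect the mRNA from decay. With enough iron, IRP1 carries an iron-sulfur cluster and works as cytosolic aconitase, and IRP2 is degraded.

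The hairpins are shown because they divide the genes by the end of the mRNA that carries the element. They were searched in the annotated UTRs (GENCODE 44, GRCh38) as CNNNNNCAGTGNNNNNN, a bulged C, a 5-base stem and a 6-base loop, on the transcribed strand, with at least 4 of the 5 stem positions able to pair. The loop is in capitals, and each sequence is given 5′ to 3′ as DNA of the transcribed strand.
FTH1, 5′UTR, chr11:61967574-61967602, minus strand: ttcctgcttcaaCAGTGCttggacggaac
FTL, 5′UTR, chr19:48965335-48965363, plus strand: ctcttgcttcaaCAGTGTttggacggaac
SLC40A1, 5′UTR, chr2:189580661-189580689, minus strand: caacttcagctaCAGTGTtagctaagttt
TFRC 1, 3′UTR, chr3:196050979-196051007, minus strand: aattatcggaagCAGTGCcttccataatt
TFRC 2, 3′UTR, chr3:196050575-196050603, minus strand: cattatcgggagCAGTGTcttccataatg
TFRC 3, 3′UTR, chr3:196050510-196050538, minus strand: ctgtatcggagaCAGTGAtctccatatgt
TFRC 4, 3′UTR, chr3:196050463-196050491, minus strand: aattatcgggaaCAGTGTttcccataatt
SLC11A2, 3′UTR, chr12:50988269-50988297, minus strand: agccatcagagcCAGTGTgtttctatggt

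All 5 stem positions pair in each of these except that of SLC11A2, where 4 do. A 5′UTR with 5 pairs was found in 19 of 19441 canonical transcripts (0.0977%), and a 3′UTR with 5 pairs in 122 of 19550 (0.624%), whereas 4 or 5 pairs occurred in 842 3′UTRs (4.31%). The FTH1 match lay in 9 of 12 annotated transcripts, the FTL match in the gene's 1 transcript, the SLC40A1 match in 1 of 7, the TFRC matches in 13 of 38 and the SLC11A2 match in 6 of 33. The 3′UTRs of ACO1 and IREB2 held 1 match each with 4 of 5 pairs, a kind of match that is common among 3′UTRs. A match is a run of letters and not evidence that a protein binds there.

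The genes also differ in length. The canonical transcript of FTH1 (ENSG00000167996) is 1203 nt and that of FTL (ENSG00000087086) 871 nt. Those of SLC40A1 (ENSG00000138449), SLC11A2 (ENSG00000110911) and TFRC (ENSG00000072274) are 3330, 4132 and 5012 nt, and those of IREB2 (ENSG00000136381) and ACO1 (ENSG00000122729) 6324 and 7443 nt. The ferritin genes span 7.92 kb (FTH1) and 1.57 kb (FTL) of the genome, and the other 5 between 23.2 and 70.2 kb.

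The knocked-down genes were checked first. G3BP1 was at 18.7 TPM in siCtrl, 5.996 in siG3BP1 and 16.5 in siG3BP2, and G3BP2 at 38.1, 39.4 and 11.4 TPM. Each targeted gene was thus left at 32.0% (G3BP1) and 29.9% (G3BP2) of its siCtrl level. Of 14 markers of neuroblastoma cells, 13 were above 1 TPM in each of the 5 TPM libraries, with TH at or below 0.389 TPM. Of 13 markers of blood, liver, epithelial and mesenchymal cells, between 3 and 5 were above 1 TPM. Their summed level was 13.3 to 28.7 TPM outside SG and 177 TPM in SG, most of it PDGFRA at 98.7, COL1A1 at 40.97 and the macrophage marker CD68 at 28.7 TPM, against 1.03, 9.42 and 0.553 TPM in Total. LYZ was at 1.38 TPM in SG. PTPRC, ALB, HBB and ALAS2 were at 0 or below 0.25 TPM throughout, and the part of these markers in the SG results was not tested.

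The mRNAs of the ferritin chains were among the most abundant in the cells, and the other members were far lower outside SG. FTH1 over TFRC was 125 in siCtrl, 265 in Total and 2.21 in SG. TPM is scaled to transcript length, so these levels can be compared between genes. In bulk libraries, fewer cells that hold an mRNA and less of it per cell cannot be told apart. FTH1 was at 2269 TPM in siCtrl, 2448 in siG3BP1, 2344 in siG3BP2, 2109 in Total and 205 in SG. FTL was at 1352, 1484, 1447, 1522 and 215 TPM in the same order. Among all genes, FTH1 ranked 26th in siCtrl and 572nd in SG, and FTL 61st and 519th. TFRC was at 18.2, 18.9, 14.5, 7.94 and 92.6 TPM in siCtrl, siG3BP1, siG3BP2, Total and SG. For SLC11A2 the values were 8.73, 12.5, 5.49, 6.16 and 36.6 TPM, and for SLC40A1, the exporter and the lowest member outside SG, they were 1.26, 2.54, 1.25, 0.450 and 9.44 TPM. ACO1 was at 5.47, 4.46, 4.12, 3.84 and 7.32 TPM and IREB2 at 8.41, 7.03, 8.16, 2.699 and 121 TPM. The order in siCtrl was FTH1, FTL, TFRC, SLC11A2, IREB2, ACO1 and SLC40A1. With 1 library, neighbours as close as SLC11A2 and IREB2 cannot be ordered. In SG the 7 values lay closer together, with FTL and FTH1 followed by IREB2 and TFRC.

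**Figure D1:**
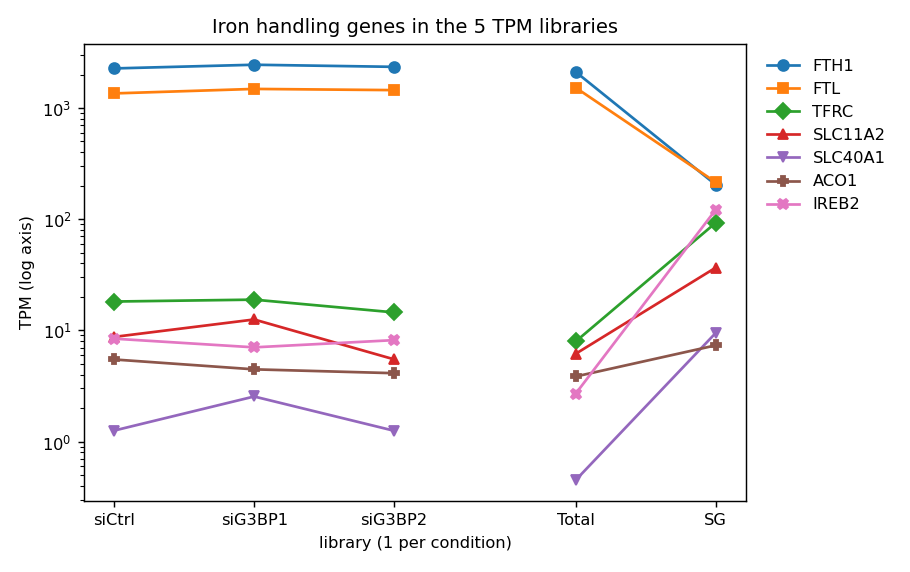
TPM (log axis) of the 7 genes in the 3 siRNA libraries and in Total and SG, 1 point per library, with lines joining libraries of the same experiment. FTH1 was at 2109 TPM in Total and 205 in SG while IREB2 was at 2.699 and 121 TPM, and no gene moved by as much among the siRNA libraries.

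SG against Total asks which mRNAs are over- or under-represented in the SG core. Both ferritin mRNAs were lower in SG, and 4 members were higher: the mRNAs of the uptake proteins TFRC and SLC11A2, of the exporter SLC40A1 and of IRP2. ACO1 lay between the thresholds. Genes were called higher or lower in SG when the ratio of TPM + 1 was above 2 or below 0.5 and the higher library was above 1 TPM. By this rule 62.9% of the 13560 genes above 1 TPM in either library were higher in SG and 9.45% were lower, beside 4 and 2 of the 7 members. On this scale the lower share of the members is above the background, and with the median ratio set to 1, a scale on which 24.1% of genes were lower, it is near it.

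FTH1 differed by -3.36 on the log2(TPM + 1) scale, and 98.9% of genes had a higher ratio. For FTL the difference was -2.82, with 98.1% of genes above it. IREB2 had the largest ratio of the members, a log2 difference of 5.05, which 2.27% of genes exceeded. TFRC (3.39), SLC40A1 (2.85) and SLC11A2 (2.39) followed, with 15.2%, 23.3% and 31.7% of genes above them. The value of SLC40A1, at 0.450 TPM in Total, depends on the constant added: with 0.1 in place of 1 it was 4.12, above TFRC at 3.53. With a minimum of 10 TPM it was not called. ACO1 was at 0.78, below 67.8% of genes. The members' median difference was 2.39 against 1.51 for all genes. The genes of the 2 IRPs thus stood far apart in SG, with IREB2 over ACO1 at 16.6 in SG against 0.702 in Total and 1.54 in siCtrl.

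**Figure D2:**
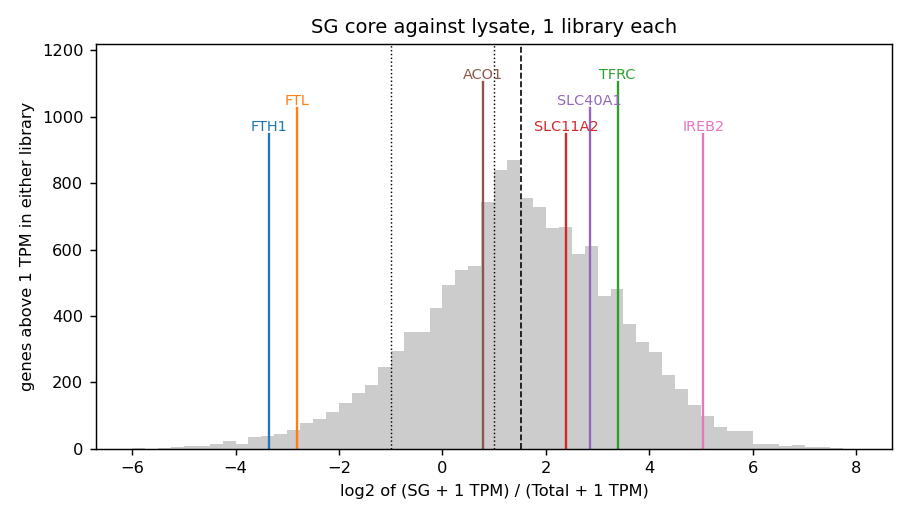
Distribution over genes above 1 TPM of the log2 ratio of SG to Total (TPM + 1), with the 7 genes as coloured lines, the thresholds of 2 and 0.5 as dotted lines and the median of all genes as a dashed line. FTH1 and FTL lie in the lower tail at -3.36 and -2.82, IREB2 in the upper tail at 5.05, and ACO1 at 0.78 is left of the median of 1.51.

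The TPM of the listed protein-coding genes summed to 623955 in Total and 735927 in SG, and the median gene above 1 TPM in both libraries was 2.78 times higher in SG. With that median set to 1, the split of all genes went from 62.9% higher and 9.45% lower to 33.2% higher and 24.1% lower. FTH1 (-4.82) and FTL (-4.28) remained lower and IREB2 (3.59), TFRC (1.94) and SLC40A1 (1.60) higher. SLC11A2 lay just under the threshold at a ratio of 1.98, and ACO1 turned to -0.41, below the median gene. The direction of ACO1 therefore depends on the scale.

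The length of the canonical transcript did not order the members throughout. Over 13548 genes, Pearson's r between the log2 ratio and the log10 length of the canonical transcript was 0.659, a description across genes, which are not independent. The median log2 difference was -0.74 in 2081 genes up to 1500 nt, 1.92 in 3813 genes over 3000 and up to 5000 nt, and 3.16 in 3594 longer genes. FTH1 and FTL lay below the lower quartile of their class (-1.83), and IREB2 lay above the upper quartile of its class (4.08), as did SLC40A1 (2.72). TFRC and SLC11A2 lay between the quartiles of their classes. TFRC, at 5012 nt, is just past the bound of 5000 nt, and its 3.39 is above the upper quartile of the class below (2.72). ACO1, the longest member, was at 0.78, under the lower quartile of genes over 5000 nt (2.16). With the IRE in the 5′UTR, FTH1 and FTL were lower and SLC40A1, at 0.450 TPM in Total, was higher. With it in the 3′UTR, TFRC and SLC11A2 were higher. IREB2 and ACO1 hold a 3′UTR match with 4 of 5 pairs, as SLC11A2 does, and IREB2 was higher while ACO1 was not called. A part of the side of the IRE in this was not tested.

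Knockdown of G3BP1 or G3BP2 left all 7 genes within the thresholds. In siG3BP1 against siCtrl, 1.12% of 12280 genes were called higher and 1.98% lower, and in siG3BP2, 1.23% of 12229 genes higher and 2.89% lower. After knockdown of G3BP1, SLC40A1 and SLC11A2 had the largest log2 differences, 0.65 and 0.47, which 2.90% and 5.13% of genes exceeded. SLC11A2 was in the opposite direction after knockdown of G3BP2, at -0.58, with 90.3% of genes above it, and SLC40A1 was at -0.0032. The other 5 members were between -0.24 and 0.13 in siG3BP1 and between -0.34 and 0.10 in siG3BP2. Both comparisons share the siCtrl library.

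Total against siCtrl sets AS-treated lysate beside siRNA-treated cells, and the stress, the siRNA, the clearing of the lysate and the library cannot be told apart. TFRC and IREB2 were called lower, with log2 differences of -1.10 and -1.35, where 19.6% of 12173 genes were called lower and 1.28% higher. FTH1 (-0.11) and FTL (0.17) differed little from siCtrl. The median over all genes was -0.41, and SLC11A2 (-0.44) and ACO1 (-0.42) were near it. SLC40A1 was at -0.64, while its TPM in Total was 0.359 times that in siCtrl. With 0.1 added in place of 1 it was at -1.30 and called lower. With the median ratio set to 1, IREB2 stayed lower at a ratio of 0.488 and TFRC was at 0.605.

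For each member the 2 genes closest in pattern were listed by Euclidean distance of gene-centred log2(TPM + 1) over the 5 TPM libraries, among genes averaging at least 1 TPM. For FTH1 they were TMEM160 (distance 0.113) and DUSP23 (0.147), and for FTL, ECHS1 (0.106) and COX4I1 (0.126). TFRC was closest to GPRASP1 (0.102) and IRF2BP2 (0.119), SLC11A2 to DROSHA (0.261) and EHBP1 (0.281), and SLC40A1 to RIPOR3 (0.164) and LRATD1 (0.174). ACO1 was closest to GLUD1 (0.0655) and HARS2 (0.0889), and IREB2 to TRIP12 (0.145) and MYH10 (0.206). No member was among the 2 closest genes of another.

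The rRNA-depleted libraries show the cells' RNA before and after AS. Their values per transcript behaved as reads scaled to transcript length and to a library of 13291958 reads before and 11281587 after AS, and every read was given to each transcript it overlaps. The reads behind each value could be recovered from the steps of the values, and 95% intervals of the AS to untreated ratio were taken from them by the exact conditional binomial method. These intervals compare 2 libraries and cover counting error only.

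No member transcript passed a ratio of 2 or 0.5 on value + 1, among 68 member transcripts above 1 in either library. Over all 100705 transcripts above 1, 1.51% were higher after AS and 0.470% lower. Summed per gene, no member passed either, where 4.08% of 16457 genes were higher and 1.28% lower. Within these limits, SLC11A2 stood lowest of the members summed per gene, at 0.819, and SLC40A1 next at 0.930, with 91.1% and 83.2% of genes above them. The other 5 lay between 1.06 and 1.33, around the median gene at 1.20. The sums count a read once for each form it overlaps. SLC40A1 summed to only 2.58 before and 2.40 after AS. Its canonical transcript was at 1.43, with an interval that includes 1, so its place among the members is uncertain. The median transcript had a ratio of 1.19.

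The canonical FTH1 transcript, FTH1-201, was at 265 before and 285 after AS, from 4239 and 3873 reads, a ratio of 1.076 (95% interval 1.03 to 1.12). All 12 FTH1 transcripts had ratios between 1.02 and 1.12. The retained-intron form FTH1-211 had the highest value, at 359 and 388. As the forms of a gene share reads, a higher value does not show a more abundant form. FTL-201 went from 159 to 212, a ratio of 1.33 (1.25 to 1.42) from 1843 and 2085 reads. The intervals of the 2 chains do not overlap, so between these 2 libraries the light chain had the higher ratio beyond counting error. Against the median transcript FTH1-201 was at 0.905 (0.866 to 0.945) and FTL-201 at 1.12 (1.05 to 1.19), on either side of it. Both ferritin genes have processed pseudogenes that can share reads. The 25 listed FTH1 pseudogenes summed to 9.15 in untreated cells and the 16 of FTL to 0.602, small beside the genes themselves.

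TFRC-201, with all 4 IRE matches, was at 9.79 and 12.9, from 652 and 727 reads, a ratio of 1.31 (1.18 to 1.46). The 3 listed TFRC transcripts with the matches had ratios of 1.31 to 1.32. Of those without, 10 were above 1 in either library and ranged from 1.03 to 1.85. IREB2-201 was at 8.80 and 10.2 (ratio 1.16, 1.045 to 1.29). IREB2-203, the form with the highest value before AS, was at 9.49 in untreated cells with the same ratio of 1.16. ACO1-201 was at 1.36 and 1.93 (1.41, 1.12 to 1.79). The ACO1 form with the highest value, which lacks the long 3′UTR, was at 2.44 and 3.15. SLC40A1-201, the transcript with the IRE, was at 0.836 and 1.20 from 37 and 45 reads, and its interval of 0.907 to 2.28 includes 1 and the ratio of every member except SLC11A2.

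SLC11A2-201, the canonical transcript and the form with the highest value before AS, was at 4.08 before and 2.92 after AS. These came from 224 and 136 reads. Its ratio of 0.715 (0.574 to 0.889) was the only canonical one below 1. Against the median transcript the ratio was 0.601 (0.482 to 0.747), an interval that lies under the median transcript, as that of FTH1-201 did. Of the 28 SLC11A2 transcripts above 1, 24 had ratios under 1, and they share most of their reads. The 6 transcripts with the IRE match had ratios between 0.699 and 0.946. Of the long forms without the match, SLC11A2-211 had 0.836 (0.657 to 1.06), SLC11A2-222, a retained-intron form, 0.625 (0.476 to 0.815) and SLC11A2-227, 0.619 (0.469 to 0.810). As the forms share reads, a difference between those with and without the IRE was not tested.

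**Figure D3:**
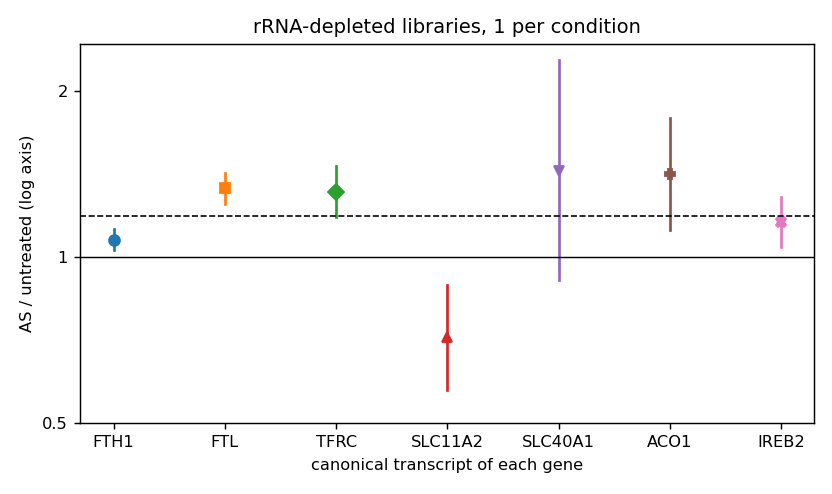
Ratio of AS-treated to untreated cells (log axis) for the canonical transcript of each gene in the rRNA-depleted libraries, with exact 95% counting intervals; the solid line is 1 and the dashed line the median transcript at 1.19. SLC11A2 at 0.715 is the only gene whose interval lies below 1, and the interval of SLC40A1 is the widest.

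**Figure D4:**
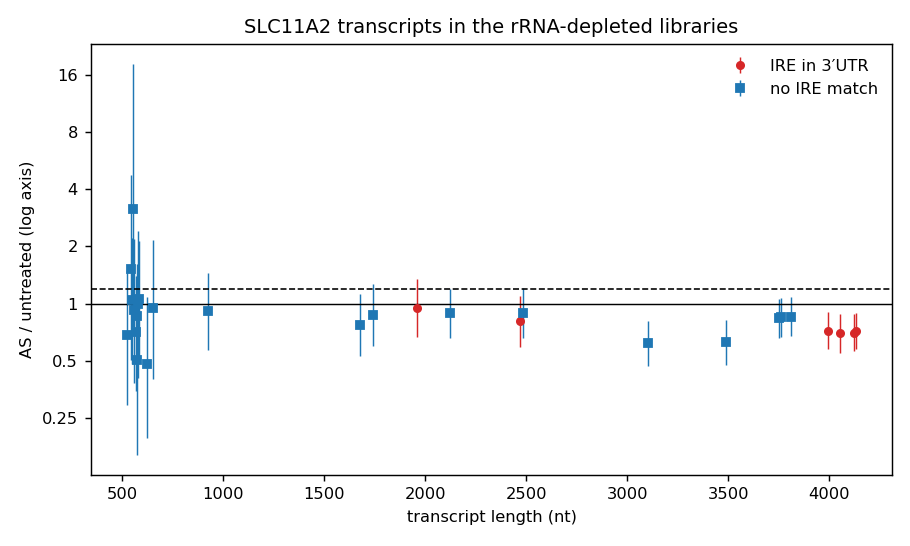
Ratio of AS-treated to untreated cells (log axis) against transcript length for the 28 SLC11A2 transcripts above 1 in either library, red with the 3′UTR IRE and blue without, with exact 95% counting intervals. The long transcripts of both kinds lie below 1, and the short ones have wide intervals.

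The eCLIP table gives for each gene and library the log10 of a whole number plus 1, here divided by the library's sum and given in parts per 1000000 (ppm). The sums ranged from 4268911 to 26179736, with replicate 1 the larger in each group. The number followed the genomic span of a gene's transcripts, introns included, with r between 0.864 and 0.874 over 19896 genes, and hardly its TPM in siCtrl (r between 0.0577 and 0.109). For this reason levels between genes are given per kb of that summed span. The median over genes and libraries was 0.141 ppm per kb.

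FTL, the second most abundant member in TPM, was at 0 in 7 of the 8 eCLIP libraries and at 0.0384 ppm in replicate 1 of G3BP2 after AS. It was left out of the tests by the filter on zeros, which needed at least 2 libraries above 0. Of all genes, 3.42% were at 0 in 7 or more libraries. The summed span of FTL is 1.57 kb, the smallest of the members. FTH1, with a summed span of 50.0 kb, had between 0.112 and 0.312 ppm per kb. The medians over the 8 libraries were 0.146 for FTH1, 0.150 for SLC40A1, 0.111 for SLC11A2, 0.0982 for ACO1, 0.0707 for TFRC and 0.0701 for IREB2, so that 4 of these 6 were under the median gene. FTH1 over TFRC was 125 in TPM in siCtrl, whereas their eCLIP ranges per kb met, with TFRC between 0.0444 and 0.116.

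AS against untreated eCLIP asks whether a gene's eCLIP number shifts under stress. Input libraries were not used, so whether the proteins' contacts with the mRNA shifted was not tested. SLC11A2 was the member with the clearest difference, higher after AS for both proteins. For G3BP1 it was at 61.6 and 73.6 ppm in untreated cells, against 153 and 126 after AS. For G3BP2 it was at 60.5 and 43.7 in untreated cells, against 121 and 164 after AS. The groups did not overlap for either protein. All AS libraries lay above all untreated ones in 13.3% of 18888 genes for G3BP1 and 14.7% of 19035 for G3BP2, and below them in 14.5% and 15.6%.

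On the log2 scale the difference of SLC11A2 was 1.03 (SE 0.198) for G3BP1 and 1.45 (SE 0.237) for G3BP2 with limma. Only 3.09% and 1.014% of genes had a larger one. Unadjusted p-values of 0.00261 and 0.00163 ranked 35th and 29th, but the adjusted p-values were 0.996 and 0.991. No gene passed an adjusted p of 0.05 with limma in either protein (0 of 18888 and 0 of 19035, 0% each), and 526 and 681 genes were under an unadjusted p of 0.05. An exact permutation test of 2 against 2 cannot go below p = 0.333.

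Since SLC11A2 differed alike for both proteins, a fit over all 8 libraries with protein as a term was added after these values were seen. It gave a log2 difference of 1.24 (SE 0.166, limma, adjusted p = 0.0469), among 33 of 19259 genes called (0.171%). The libraries of the 2 proteins with the same treatment and number deviated together (r = 0.569 without AS and 0.489 with AS), so they are not independent. With treatment and number as a random block, 7 genes were called and the adjusted p of SLC11A2 was 0.224. The call thus rests on counting the libraries of both proteins as separate. The interaction of treatment and protein was 0.41 (SE 0.323, limma, adjusted p = 1.00), and no gene passed that test (0 of 19259, 172 at an unadjusted p under 0.05).

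SLC11A2 was higher in eCLIP after AS and lower in the rRNA-depleted library after AS. What the eCLIP number counts is not stated, and no ratio of the 2 was formed because they were scaled separately. Of 4 protein-coding genes within 60 kb of SLC11A2, none had all AS libraries above all untreated ones for G3BP1, and METTL7A alone had for G3BP2 (5.88 and 7.21 untreated, 8.75 and 17.9 after AS). LETMD1, the highest of them, was at 61.6 and 55.8 ppm for G3BP1 without AS and at 19.7 and 107 with AS. For G3BP2 it went the other way from SLC11A2, with 39.0 and 63.2 without AS and 14.5 and 27.1 with AS.

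**Figure D5:**
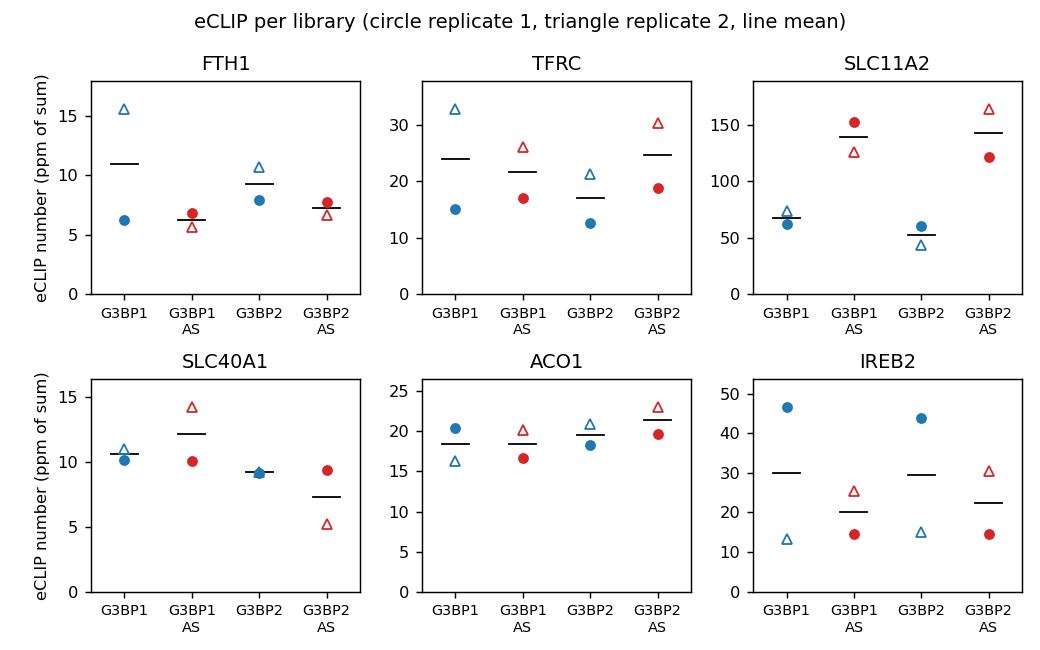
eCLIP number, in ppm of the library's sum, in each library for the 6 members above 0, blue untreated and red AS, circles replicate 1 and triangles replicate 2, with lines at group means (n = 2). SLC11A2 lies above 121 ppm in all 4 AS libraries and below 74 in all untreated ones, while for IREB2 the spread within a group is as large as any difference between groups.

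The other members overlapped between treatments, with 1 exception. FTH1 was at 6.25 and 15.6 ppm for G3BP1 in untreated cells and 6.79 and 5.62 after AS. For G3BP2 it was at 7.95 and 10.7 in untreated and 7.79 and 6.65 after AS, groups that do not overlap but whose difference of -0.34 (SE 0.325, limma, adjusted p = 0.996) is near its error. TFRC was at 15.1 and 32.8 for G3BP1 untreated, 17.1 and 26.0 after AS, 12.6 and 21.4 for G3BP2 untreated and 18.8 and 30.4 after AS. In all 4 groups of TFRC, replicate 2 was the higher.

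IREB2 was at 46.7 and 13.3 ppm for G3BP1 untreated and 14.6 and 25.5 after AS. For G3BP2 it was at 43.8 and 15.1 untreated and 14.5 and 30.4 after AS. Replicate 1 of the untreated cells was the high library for both proteins, and without it the log2 difference after AS turned from -0.36 to 0.53 for G3BP1 and from -0.29 to 0.47 for G3BP2. ACO1 was the steadiest member, with group means of 18.4 ± 2.86 (SD, n = 2) and 18.4 ± 2.43 for G3BP1 and 19.6 ± 1.86 and 21.4 ± 2.44 for G3BP2, untreated and AS. SLC40A1 had 10.6 ± 0.617 and 12.2 ± 2.995 for G3BP1 and 9.20 ± 0.101 and 7.29 ± 2.93 for G3BP2. Between the proteins, G3BP2 against G3BP1 over all 8 libraries, no member was called, nor any gene (0 of 19259 with limma, 358 at an unadjusted p under 0.05). The largest member difference there was that of SLC40A1, at -0.46 (SE 0.257, limma, adjusted p = 0.999).

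The wider pathway was described by 5 lists holding 73 genes, all found. In SG against Total, 63 were above 1 TPM, 27 were called higher (42.9%, against 62.9% of all genes) and 13 lower (20.6%, against 9.45%), with a median log2 difference of 0.32 against 1.51 for all genes. With the median ratio set to 1, 12 were higher (19.0%, against 33.2%) and 31 lower (49.2%, against 24.1%). Of 6 other mRNAs for which an IRE has been described, 5 were above 1 TPM and 3 were higher, from CDC42BPA (2.76 to 105 TPM), a kinase of the cytoskeleton, to EPAS1 (6.83 to 89.2 TPM), a hypoxia factor. Of 8 genes that control the IRPs or ferritin turnover, 4 were higher and 3 lower. The highest was HERC2, a ubiquitin ligase (0.612 to 46.2 TPM), and the lowest RBX1, a ligase subunit (35.9 to 4.98 TPM). In between, FBXL5, which targets IRP2 for degradation, went from 8.66 to 24.5 TPM and NCOA4, the receptor for ferritin autophagy, from 25.9 to 69.9 TPM.

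Iron uptake and release had 6 higher and 1 lower of 10 above 1 TPM, from the metal importer SLC39A14 (7.36 to 86.4 TPM) to STEAP1 (1.95 to 0.369 TPM). Heme genes had 7 higher and 2 lower of 16, from the heme exporter FLVCR1 (2.72 to 59.98 TPM) to the biliverdin reductase BLVRA (95.7 to 15.3 TPM). Iron-sulfur cluster assembly had 7 higher and 7 lower of 24, from IBA57 (0.859 to 15.8 TPM) to BOLA3 (57.7 to 5.40 TPM). This list had the lowest median log2 difference of the 5, 0.21, and the other mRNAs with a described IRE the highest, 3.53. With the median ratio set to 1, uptake and release had 3 higher and 3 lower, heme genes 4 and 8, and iron-sulfur assembly 1 and 14. The described IRE mRNAs then had 3 and 2, and the genes of IRP control and ferritin turnover 1 and 4. The balance within these lists therefore depends on the scale.

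Few list genes were called elsewhere, after knockdown at shares near those of all genes. In siG3BP1 against siCtrl, 0 of 60 list genes above 1 TPM were higher (against 1.12% of all genes) and 1 was lower (1.67%, against 1.98%). In siG3BP2, 1 of 61 was higher (1.64%, against 1.23%) and 2 were lower (3.28%, against 2.89%). The heme oxygenase HMOX2 was called lower in both, at 16.2 TPM in siCtrl, 0.754 in siG3BP1, 0.844 in siG3BP2, 0.613 in Total and 10.4 in SG. The comparisons with siCtrl share that library. In siG3BP2, NUBP1, an assembly factor, was called higher (12.6 to 42.9 TPM) and SLC25A37, the mitochondrial iron importer, lower (15.8 to 6.49 TPM). In Total against siCtrl, 1 of 61 list genes was higher (1.64%, against 1.28% of all genes) and 6 were lower (9.84%, against 19.6%).

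In the rRNA-depleted libraries, 3 of 65 list genes above 1 (4.62%) were called higher after AS and none lower, where 4.08% of all genes were higher and 1.28% lower, with a median ratio of 1.19 against 1.20 for all genes. They were HMOX1, the stress-induced heme oxygenase, at 2.98 and 9.14, HSCB, an iron-sulfur cochaperone, at 5.71 and 20.9, and HFE, a partner of the transferrin receptor, at 0.338 and 2.103. HFE was near the floor: in TPM it was at 0 in the siRNA libraries and in Total and at 0.0213 in SG. HMOX1 was the only heme gene called. In eCLIP, 72 list genes were tested and no adjusted p was under 0.05 with limma for either protein. At an unadjusted p under 0.05 with limma, 4 of the 72 were higher and 4 lower for G3BP1, and 3 higher and 4 lower for G3BP2. Among all genes tested, 2.78% were under it for G3BP1 and 3.58% for G3BP2. A larger share in the lists was not tested, and the libraries of the 2 proteins are not independent.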

How the data were processed

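SH-SY5Y libraries were taken as deposited. For the siRNA, Total and SG libraries the authors aligned reads to GRCh38 with HISAT2 2.1.0 and deposited TPM from StringTie per protein-coding gene. The rRNA-depleted values were deposited per transcript under the name TPM, but sum to more than 1000000, and are treated as a signal, reads scaled to transcript length and library size; 100% (untreated) and 99.999% (AS) of values under 50 reads came out whole within 0.05 reads, over transcripts of the same version in GENCODE 44. For eCLIP the authors deposited log10 values; which steps (duplicate removal, peak calling, input normalization) the number includes is not stated. SMInput libraries were not analysed here. TPM gives no depth, and paralogs and overlapping genes can exchange reads.

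The 7 genes and the lists were chosen with earlier results of these data known. RNA-seq conditions with 1 library were compared by ratios of value + 1 (thresholds 2 and 0.5, minimum 1). eCLIP was compared with limma 3.58.1 in R 4.3.3 on log2(number in parts per 1000000 of the library's sum + 0.5), with a threshold of 0.05 after Benjamini-Hochberg adjustment, for genes above 0 in 2 or more libraries. This scale, not the deposited one, was used because library sums differ. With 2 libraries a group p-values measure only the spread between these libraries, which may be technical. On simulated data with 200 of 18925 genes changed by 1 on the log2 scale, 77 were recovered and 2 unchanged genes called. The simulation drew independent libraries with the same spread for all genes, so it does not show recovery in the real libraries. Named are the 7 genes, G3BP1 and G3BP2, and the list genes with the highest and lowest ratio among those called. The 2 genes nearest in pattern and the transcripts with the highest values are also named. FBXL5, NCOA4, LETMD1, the SLC11A2 forms other than SLC11A2-201 and the markers named were chosen after their values were seen. Alternatives covered scaling, pseudocounts, thresholds, minimum values, the replicate block and leaving out each eCLIP library. Tables were made with pandas 2.3.3, numpy 2.4.6 and scipy 1.17.1 in Python 3.11.15, and figures with matplotlib 3.10.9. Of 19942 genes, 19910 were found in GENCODE 44 by ID, and 91.1% of transcripts; the authors used another release.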

Additional observations from a re-analysis of the deposited data

How the results depend on the processing

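Of 75 alternatives, 68 left the count of genes called within 1.5 times its value. This tally does not look at direction. For the list genes in SG against Total, 27 higher and 13 lower became 12 higher and 31 lower with the median ratio set to 1. In siG3BP1 against siCtrl, thresholds of 1.5 and its inverse called 1 member, SLC40A1. In Total against siCtrl, 2 members were called; thresholds of 4 and 0.25 called 0, a minimum of 10 TPM called 1, a median ratio set to 1 called 1, and a pseudocount of 0.1 or thresholds of 1.5 added SLC40A1 as lower. For member transcripts in the rRNA-depleted libraries, a pseudocount of 0.1 called 1 and thresholds of 1.5 called 3 (2 higher, 1 lower) in place of 0. The eCLIP fit over both proteins, added after the data were seen, called 1 member, and 0 with treatment and number as a random block.

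The 44 eCLIP alternatives within each comparison called 0 members each, leaving out each library included (lowest and highest 0). The numbers give only 2 pairs per comparison and the deviations of same-numbered untreated and AS libraries correlated weakly (r = 0.177 for G3BP1 and 0.122 for G3BP2); with the replicate block 0 members were called. SLC11A2 without each library in turn differed by 0.89 to 1.18 (adjusted p 0.309 to 0.821) for G3BP1 and by 1.21 to 1.68 (adjusted p 0.692 to 0.998) for G3BP2. On the deposited log10 scale without scaling its difference was 0.20 (unadjusted p = 0.735, limma) and 0.365 (unadjusted p = 0.396), and with the replicate block on that scale the unadjusted p was 0.196 and 0.0137 (adjusted 0.786 and 0.896). Leaving out a library turned the sign for TFRC, SLC40A1 and ACO1 with G3BP1, SLC40A1 with G3BP2 and IREB2 with both. With 1 library per RNA-seq condition, no difference there has an error beyond counting, and SLC40A1 rests on few reads.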
